A study of Mus musculus with 31 samples.

Results

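J-domain cochaperones are the proteins that bring unfolded clients to HSP70 chaperones and switch on their ATPase. The genes considered here were the mouse genes whose symbol begins with Dnaja, Dnajb or Dnajc followed by a number, and 45 protein-coding genes met that rule, out of 24594 genes listed in the deposited tables. Class A held 4 of them, class B 13 and class C 28. The rule uses symbols only.

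The J domain is a short helical bundle whose His-Pro-Asp motif stimulates ATP hydrolysis by HSP70, so that HSP70 closes on its client. Class A proteins also carry a glycine- and phenylalanine-rich linker and a zinc-binding region, class B proteins lack the zinc-binding region, and class C proteins share little beyond the J domain and are often fixed to one place or task. Cytosolic members such as Dnaja1 and Dnajb1 belong to the heat shock response that follows loss of proteasome activity, and members of the endoplasmic reticulum (ER) such as Dnajb9 and Dnajc3 belong to the unfolded protein response.

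The cells were mouse skin squamous cell carcinoma (SCC) keratinocytes, labelled HRasG12V:TgfbrIIfl/fl in every group, with an eGFP reporter. The paper lists both lines as HRasG12V with TgfbrII D/D and uses fl/fl for pre-oncogenic keratinocytes. Labels and paper therefore differ on this allele. Their own Eif2s1 gene, which encodes the translation factor eIF2α, had been ablated by CRISPR, and a myc-tagged Eif2s1 transgene driven by the PGK promoter took its place. S51 cells carried the wild-type transgene and can mount the integrated stress response (ISR), and S51A cells carried a form that cannot be phosphorylated at serine 51 and are ISR-null. Each line was given vehicle or 100 nM of the proteasome inhibitor bortezomib, for 4.5 h by the sample labels. The paper's legend for the ribosome profiling gives 4 h, so labels and paper differ on the time as well. Ribosome-protected fragments (RPF), which count footprints of translating ribosomes on the coding sequence, came from 15 libraries (S51 vehicle n = 3, S51 bortezomib n = 4, S51A vehicle n = 4, S51A bortezomib n = 4). Total RNA came from 16 libraries, 4 per group. The lines came from single-cell clones, 2 of each genotype, and which clone gave which library is not given in the sources used here, so that genotype and clone cannot be told apart. The study describes its replicates as technical in one place and as independent in another, so the p-values measure the spread between these libraries, which may be technical.

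Library totals ran from 1038826 to 4902237 counts for RPF, and total RNA libraries held 18758668 to 22994713. Eif2s1 lay between 81.2 and 259.8 CPM (counts per 1000000, with library sizes scaled by the trimmed mean of M values) in RPF and between 279 and 314 CPM in total RNA, and a count per gene cannot tell the transgene from the endogenous gene. Its RPF under vehicle was 81.2 to 171 CPM in S51 and 213 to 259.8 CPM in S51A, without overlap. Under bortezomib it was 148 to 196 CPM in S51 and 190 to 235 CPM in S51A, with overlap. All 10 keratinocyte markers, which define the labelled cell type, were detected, with a summed RPF level of 26728 to 38894 CPM per library, whereas the summed markers of fibroblasts, immune cells, endothelial cells and melanocytes each stayed at or under 16.9 CPM in every library. RPF replicate 2 of S51 vehicle stood apart. It was below both other libraries of its group by more than 1.5-fold for 11 of the 33 members tested (16.3% of all genes tested) and above both by more than 1.5-fold for 2 (8.55% of all genes). RPF log2 values that include this group are therefore also given without it where leaving it out changed a call or a sign or moved the value by more than 1.5 times. In a bulk culture, fewer cells with a transcript and less of it per cell cannot be told apart.

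Of the 45 members, 33 passed the filter on low counts in RPF (4 of class A, 8 of class B, 21 of class C) and 37 in total RNA (4, 9 and 24). Dnajb3, Dnajb7, Dnajb8, Dnajb13, Dnajc5b, Dnajc5g, Dnajc6 and Dnajc22 were tested in neither kind of library, and Dnajb5, Dnajc12, Dnajc27 and Dnajc28 only in total RNA. Among them, Dnajb3, Dnajb7, Dnajb8, Dnajb13, Dnajc5b, Dnajc5g and Dnajc6 were at 0 counts in all 15 RPF libraries, and Dnajc5g was at 0 in all 16 total RNA libraries too. A count of 0 allows up to 3 counts in a library, from counting error alone. In S51 cells under vehicle, the highest RPF levels per kilobase of coding sequence were those of Dnaja2 (190.4 ± 67.4 CPM per kb, SD, n = 3), Dnajc5 (175 ± 7.49), Dnajb6 (131 ± 23.7) and Dnaja1 (119 ± 46.4). Dnaja2 is a constitutive cytosolic cochaperone, Dnajc5 is the cysteine string protein of secretory vesicles and Dnajb6 is known for holding back aggregation. Each of the 4 overlapped its neighbour in this order over the 3 libraries except Dnajc5 and Dnajb6, whose libraries did not overlap. At the low end of the 33 tested, Dnaja4 had 4.28 ± 1.07 CPM per kb, the lowest of class A.

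Because heat shock factors and ER stress factors bind short promoter elements, the promoter sequence was searched for them. RefSeq windows on GRCm38.p6 (250 bases before to 50 bases after each annotated start) were held for 37 of the 45 members. The other 8 were Dnajc2, Dnajc5, Dnajc5b, Dnajc11, Dnajc12, Dnajc18, Dnajc22 and Dnajc30. The full heat shock element, 3 alternating units of GAA and TTC with NN between them, on either strand, was in the windows of 0.662% of 27025 genes and of 1 member, Dnajb6. The ER stress element, CCAAT and CCACG with 9 bases between them on either strand, was in 0.137% of genes and in 1 member, Dnajc3. The amino acid response element TGATGNAA was in 4.51% of genes and in 0 members. A shorter pair of heat shock units, GAANNTTC or TTCNNGAA, was added after the data were seen. It overlaps the longer element, and it was in 17.0% of genes and in 7 members (Dnaja1, Dnaja4, Dnajb4, Dnajb6, Dnajc5g, Dnajc10 and Dnajc27). The stretches below are those of members whose RPF values are given in the next paragraphs, with the matched letters in capitals, written 5′ to 3′ on the strand of the gene. A gene can have several annotated starts, and the matches of Dnaja4 and Dnajb4 lie at a start inside the gene. A match is a description of the letters and does not show a bound site. Dnajb1 and Dnajb2 have a window and hold none of these letters.
Dnaja1 (chr4:40722333-40722362, plus strand): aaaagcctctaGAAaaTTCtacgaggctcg
Dnaja4, first pair (chr9:54699458-54699487, plus strand): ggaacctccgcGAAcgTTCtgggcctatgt
Dnaja4, second pair (chr9:54699496-54699525, plus strand): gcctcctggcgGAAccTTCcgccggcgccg
Dnajb4 (chr3:152193841-152193870, minus strand): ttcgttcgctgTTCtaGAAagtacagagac
Dnajb6 (chr5:29735844-29735872, plus strand): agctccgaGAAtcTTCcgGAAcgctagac
Dnajc10 (chr2:80315273-80315302, plus strand): aacaattttatTTCtaGAAaactttaatta
Dnajc3 (chr14:118937822-118937850, plus strand): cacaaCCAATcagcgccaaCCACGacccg

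The first question was how each class moved when the proteasome was inhibited. In RPF of S51 cells, 8 of 33 members rose (7.38% of all 9457 genes tested rose) and 2 fell (11.2% of all genes). In S51A cells, 9 rose (4.19% of all genes) and 1 fell (6.67%). The call required a fold above 1.5 together with an adjusted p below 0.05 in edgeR's quasi-likelihood test. The 8 that rose in S51 were Dnaja1, Dnaja4, Dnajb1, Dnajb2, Dnajb4, Dnajb9, Dnajc3 and Dnajc9. All 8 were among the 9 of S51A, which added Dnajc18. Class A held 2 of 4 that rose in each line, class B 4 of 8 in each line, and class C 2 of 21 in S51 and 3 of 21 in S51A. Median RPF log2 fold changes in S51 were 0.89 for class A, 0.80 for class B and 0.11 for class C, and in S51A 1.23, 0.79 and 0.05. The median over all genes was 0.00 in S51 and -0.01 in S51A. The share of members that rose was above that of all genes in each line, and the share that fell was below it. Restricted to members with 10 or more counts in all RPF libraries, the class A medians were 0.53 and 0.34 over 3 genes and the class B medians 0.36 and 0.39 over 5 genes. Without RPF replicate 2 of S51 vehicle, 8 members rose and 1 fell in S51. Of all 9597 genes tested there, 642 rose and 910 fell. The S51 medians were then 0.72, 0.74 and -0.03 for classes A, B and C, so that the class C median changed sign.

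**Figure D1:**
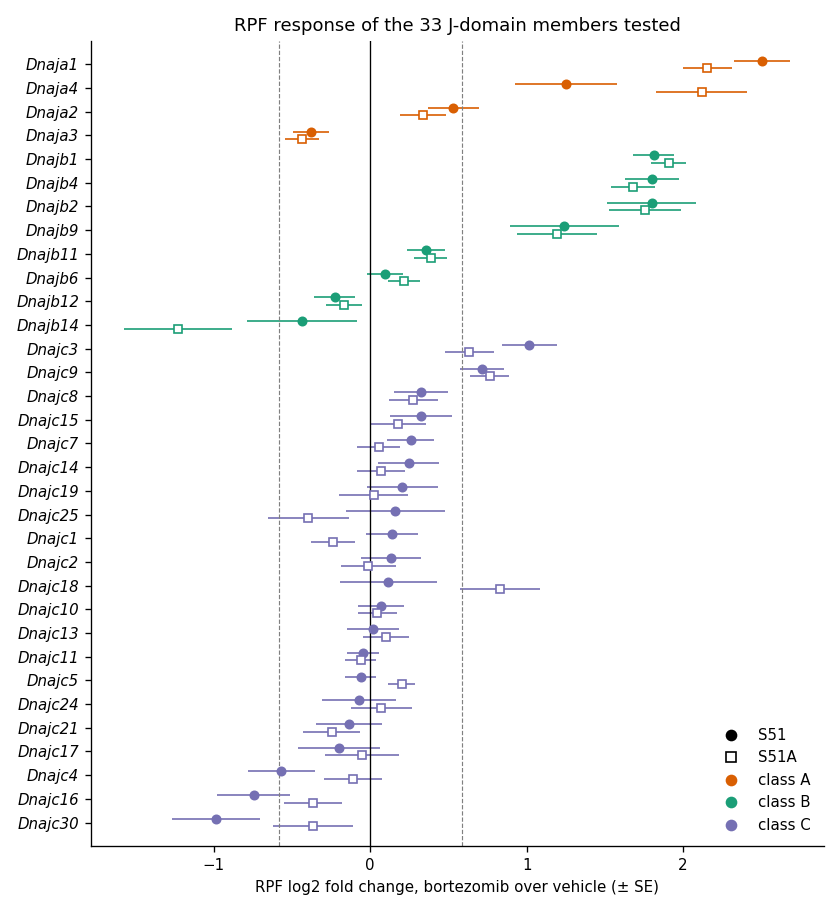
RPF log2 fold change (bortezomib over vehicle, horizontal axis, with the standard error as a bar) of the 33 members tested, in S51 (filled circles) and S51A (open squares), ordered within class A (orange), B (green) and C (purple). The dashed lines mark a 1.5-fold change, and Dnaja1 had the highest value in both lines, 2.51 in S51 and 2.16 in S51A.

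In total RNA, 6 of 37 members rose in S51 (5.7% of all 11708 genes tested) and 2 fell (9.59%). In S51A, 10 rose (4.54%) and 2 fell (8.57%). Those that rose in S51 were Dnaja1, Dnaja4, Dnajb1, Dnajb2, Dnajb4 and Dnajb9, all also called in S51A, and S51A added Dnajb5, Dnajc3, Dnajc9 and Dnajc28. Dnajb14 and Dnajc30 fell in both lines. The class medians were 0.98, 0.34 and -0.07 in S51 and 1.08, 0.64 and 0.04 in S51A for classes A, B and C, beside medians of -0.01 over all genes in each line.

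Cytosolic members gave the largest changes. Of the list of 12 cochaperones for general folding in the cytosol and nucleus, 8 were tested in RPF and 5 rose in each line (Dnaja1, Dnaja4, Dnajb1, Dnajb2 and Dnajb4), beside 7.38% of all genes in S51 and 4.19% in S51A. The list median was 1.53 in S51 and 1.72 in S51A. The other 3 tested, Dnaja2, Dnajb6 and Dnajc7, had RPF log2 fold changes of 0.53, 0.09 and 0.26 in S51 and 0.34, 0.21 and 0.05 in S51A, under the fold limit. Without RPF replicate 2 of S51 vehicle the S51 values were 0.28, -0.03 and 0.06, and that of Dnajb6 changed sign.

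Dnaja1 (Entrez 15502, chr4:40722468-40734965 on mm10), a class A cochaperone of cytosolic HSP70, moved most in RPF. In S51, RPF were at 164, 74.0 and 167 CPM under vehicle and 726, 811, 729 and 846 CPM under bortezomib. In S51A it was 175, 188, 181 and 223 CPM under vehicle and 816, 881, 784 and 949 CPM under bortezomib. Every bortezomib library was above every vehicle library of its line, and replicate 2 of S51 vehicle was the lowest of all 15. The RPF log2 fold change was 2.51 ± 0.18 (SE) in S51, or 5.69-fold (edgeR adjusted p = 6.16e-10), and 2.16 ± 0.16 in S51A, or 4.46-fold (adjusted p = 1.5e-09). Without that replicate the S51 value was 2.23. Total RNA of Dnaja1 in S51 was 165, 182, 167 and 186 CPM under vehicle and 629, 747, 636 and 773 CPM under bortezomib. The S51A libraries had 183, 189, 189.7 and 208 CPM under vehicle and 679, 843, 688 and 932 CPM under bortezomib. The total RNA log2 fold changes were 1.99 ± 0.08 in S51 and 2.03 ± 0.08 in S51A, with bortezomib replicates 2 and 4 the highest in each line.

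Dnaja4 (Entrez 58233, chr9:54698848-54716317), another cytosolic class A cochaperone, started from a low level. RPF in S51 cells stood at 4.61, 4.35 and 6.72 CPM under vehicle and 10.2, 14.3, 10.2 and 17.9 CPM under bortezomib. In S51A the libraries gave 1.40, 3.17, 4.56 and 4.26 CPM under vehicle and 10.6, 16.1, 13.5 and 21.3 CPM under bortezomib. Vehicle and bortezomib did not overlap in either line, but the RPF counts ran only from 3 to 55 per library. Bortezomib over vehicle gave an RPF log2 fold change of 1.25 ± 0.33 in S51 (adjusted p = 0.00596) and 2.12 ± 0.29 in S51A (adjusted p = 1.55e-05). Its total RNA, with deeper libraries, was 5.94, 5.38, 4.77 and 4.23 CPM under vehicle and 12.4, 15.3, 11.03 and 19.0 CPM under bortezomib in S51. S51A cells had 4.20, 5.17, 4.51 and 4.38 CPM under vehicle and 11.8, 15.9, 13.1 and 21.8 CPM under bortezomib. The total RNA log2 fold changes were 1.51 ± 0.18 and 1.78 ± 0.18.

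Dnajb1 (Entrez 81489, chr8:83608175-83612653), the classical stress-inducible HSP40, rose in both lines in RPF and in total RNA. Its RPF level in S51 was 75.1, 83.2 and 74.4 CPM under vehicle and 259, 285, 237 and 308 CPM under bortezomib. For S51A the values were 111, 101, 81.3 and 92.7 CPM under vehicle and 315, 361, 337 and 436 CPM under bortezomib. Its RPF log2 fold change was 1.81 ± 0.13 in S51, or 3.51-fold (adjusted p = 6.73e-10), and 1.91 ± 0.11 in S51A, or 3.75-fold (adjusted p = 6.42e-11). Replicate 2 of S51 vehicle was the highest of its group here, and the S51 value without it was 1.86. Total RNA of Dnajb1 in S51 was 59.4, 62.1, 63.5 and 64.2 CPM under vehicle and 201, 220.5, 193 and 220.1 CPM under bortezomib. S51A libraries gave 80.5, 77.8, 82.3 and 87.1 CPM under vehicle and 278, 331, 281 and 367 CPM under bortezomib. S51A was above S51 in every library of each treatment in total RNA, and the log2 fold changes with bortezomib were 1.74 ± 0.07 in S51 and 1.94 ± 0.07 in S51A.

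Dnajb2 (Entrez 56812, chr1:75236395-75245692), which binds ubiquitin chains as well as HSP70, rose by a similar factor from a lower level. In S51, RPF were at 13.5, 3.87 and 13.9 CPM under vehicle and 30.6, 40.2, 35.6 and 49.3 CPM under bortezomib. In S51A, it stood at 12.1, 19.2, 13.3 and 15.4 CPM under vehicle and 40.9, 43.9, 53.1 and 72.3 CPM under bortezomib. Replicate 2 of S51 vehicle, at 3.87 CPM, was far under the other vehicle libraries. The RPF log2 fold change was 1.80 ± 0.29 in S51 (adjusted p = 5.67e-05), 1.5 without that replicate, and 1.76 ± 0.23 in S51A (adjusted p = 7.06e-06). Total RNA of Dnajb2 in S51 was 14.2, 15.3, 17.8 and 14.9 CPM under vehicle and 33.9, 49.2, 39.5 and 46.6 CPM under bortezomib. In S51A it was 21.1, 23.9, 21.9 and 23.04 CPM under vehicle and 46.7, 60.9, 48.8 and 62.0 CPM under bortezomib. The total RNA log2 fold changes were 1.44 ± 0.11 and 1.28 ± 0.10.

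Dnajb4 (Entrez 67035, chr3:152181580-152210432), a close relative of Dnajb1, rose in both lines and was lower in S51 than in S51A throughout. RPF in S51 cells stood at 46.4, 18.9 and 37.1 CPM under vehicle and 118, 135, 126 and 112 CPM under bortezomib. The S51A libraries had 67.8, 57.4, 56.4 and 59.4 CPM under vehicle and 177, 199, 189 and 205 CPM under bortezomib. None of the S51 libraries reached an S51A library of the same treatment. Its RPF change (log2) was 1.80 ± 0.17 in S51 (adjusted p = 5.28e-08), 1.57 without replicate 2 of S51 vehicle, and 1.68 ± 0.14 in S51A (adjusted p = 1.4e-08). Total RNA of Dnajb4 in S51 was 50.2, 46.9, 49.4 and 46.5 CPM under vehicle and 112, 118, 118 and 118 CPM under bortezomib. In S51A the libraries gave 72.9, 64.5, 68.0 and 61.4 CPM under vehicle and 177, 219, 187 and 225 CPM under bortezomib. The total RNA log2 fold changes were 1.27 ± 0.06 in S51 and 1.6 ± 0.06 in S51A. Dnajb5, a further cytosolic relative, was too low in RPF to test, and its total RNA rose in S51A (0.64 ± 0.20, adjusted p = 0.00731) at levels of at most 2.07 CPM, with 0.34 ± 0.24 in S51 (adjusted p = 0.226). Its S51A value was 0.57 without vehicle replicate 2 and 0.58 without bortezomib replicate 2, under the fold limit.

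**Figure D2:**
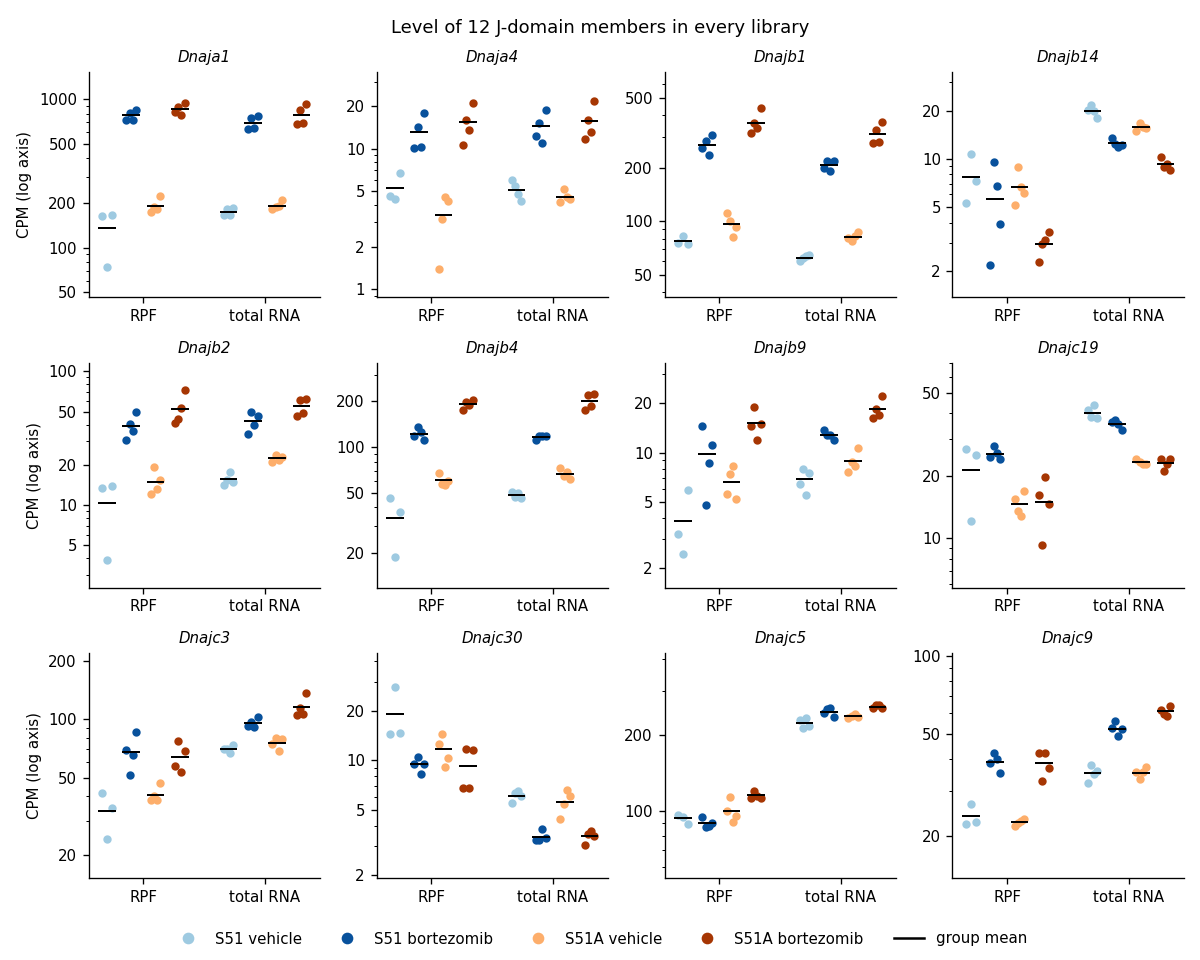
CPM (log axis) of 12 members in every RPF and total RNA library, with a point per library and a line at each group's mean, for S51 vehicle (light blue), S51 bortezomib (dark blue), S51A vehicle (light orange) and S51A bortezomib (dark orange). Dnaja1 ran from 74.0 to 949 CPM in RPF, and the low point of S51 vehicle in Dnaja1, Dnajb2, Dnajb4 and Dnajc19 is replicate 2.

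The ER list held 12 genes, 11 members and Sec63, the J-domain protein of the translocon. In RPF, 2 rose and 1 fell in S51, and 3 rose and 1 fell in S51A, with list medians of 0.15 (0.09 without RPF replicate 2 of S51 vehicle) and 0.06. Of all genes, 7.38% rose and 11.2% fell in RPF of S51, and 4.19% rose and 6.67% fell in S51A. In total RNA, 1 rose and 1 fell in S51, and 2 rose and 1 fell in S51A, with medians of 0.10 and 0.09. There, 5.7% of all genes rose and 9.59% fell in S51, and 4.54% rose and 8.57% fell in S51A. Sec63 had RPF log2 fold changes of 0.57 ± 0.17 in S51 and 0.09 ± 0.15 in S51A, short of the fold limit. Its S51 value was 0.31 without RPF replicate 2 of S51 vehicle.

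Dnajb9 (Entrez 27362, chr12:44205897-44210068), also called ERdj4, delivers misfolded ER proteins for degradation and is a known target of the unfolded protein response. Its RPF level in S51 was 3.19, 2.42 and 5.97 CPM under vehicle and 14.6, 4.78, 8.70 and 11.2 CPM under bortezomib. S51A cells had 5.61, 7.39, 8.30 and 5.27 CPM under vehicle and 14.5, 19.0, 11.96 and 15.1 CPM under bortezomib. The S51 groups overlapped, since bortezomib replicate 2 lay below vehicle replicate 3, and the S51A groups did not. RPF counts ran from 5 to 45 per library. Bortezomib over vehicle gave an RPF log2 fold change of 1.24 ± 0.35 in S51 (adjusted p = 0.00929) and 1.2 ± 0.25 in S51A (adjusted p = 0.00166). Total RNA of Dnajb9 in S51 was 6.49, 8.03, 5.51 and 7.58 CPM under vehicle and 13.7, 12.9, 12.8 and 12.02 CPM under bortezomib. For S51A the values were 7.67, 8.81, 8.28 and 10.7 CPM under vehicle and 16.3, 18.5, 17.0 and 22.1 CPM under bortezomib. Vehicle and bortezomib did not overlap in total RNA of either line, and the log2 fold changes were 0.89 ± 0.12 and 1.06 ± 0.11.

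Dnajc3 (Entrez 100037258, chr14:118937932-118981702), or p58IPK, is an ER cochaperone of BiP also known as an inhibitor of the eIF2α kinase PERK. In S51, RPF were at 41.4, 24.2 and 34.8 CPM under vehicle and 69.1, 51.7, 65.4 and 86.3 CPM under bortezomib. S51A libraries gave 38.3, 40.3, 38.2 and 46.6 CPM under vehicle and 57.3, 77.0, 53.6 and 68.5 CPM under bortezomib. Vehicle and bortezomib did not overlap in either line. Its RPF log2 fold change was 1.02 ± 0.18 in S51 (adjusted p = 0.000175), 0.87 without replicate 2 of S51 vehicle, and 0.63 ± 0.15 in S51A (adjusted p = 0.00519). Without S51A bortezomib replicate 2 the S51A value was 0.55, under the fold limit. Total RNA of Dnajc3 in S51 was 70.6, 70.5, 67.4 and 73.9 CPM under vehicle and 92.8, 96.8, 91.1 and 102 CPM under bortezomib. In S51A, it stood at 74.3, 79.7, 68.8 and 79.1 CPM under vehicle and 106, 115, 107 and 138 CPM under bortezomib. The S51 change in total RNA, 0.44 ± 0.07 (log2), was under the fold limit, and that of 0.62 ± 0.06 in S51A just above it. The latter was 0.58 without vehicle replicate 3 and 0.53 without bortezomib replicate 4, under the limit.

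Dnajb14 (Entrez 70604, chr3:137867675-137916563), an ER membrane cochaperone that acts with HSP70 in degradation from the ER, went the other way. Its total RNA in S51 was 20.2, 21.6, 19.97 and 18.0 CPM under vehicle and 13.5, 12.3, 11.9 and 12.2 CPM under bortezomib. In S51A it was 14.97, 16.7, 15.8 and 15.6 CPM under vehicle and 10.3, 8.86, 9.34 and 8.56 CPM under bortezomib. Vehicle and bortezomib did not overlap in either line, and the total RNA log2 fold changes were -0.67 ± 0.07 in S51 (adjusted p = 1.79e-08) and -0.77 ± 0.08 in S51A (adjusted p = 7.81e-09). In RPF its level in S51 was 5.31, 10.6 and 7.22 CPM under vehicle and 2.18, 9.56, 6.81 and 3.92 CPM under bortezomib, with overlap. The S51A libraries had 5.14, 8.87, 6.64 and 6.08 CPM under vehicle and 2.26, 2.92, 3.12 and 3.48 CPM under bortezomib, without overlap. Counts per RPF library ran from 3 to 42. The RPF log2 fold change was -0.44 ± 0.35 in S51 (adjusted p = 0.372), -0.21 without replicate 2 of S51 vehicle, and -1.23 ± 0.34 in S51A (adjusted p = 0.0134). The S51A call was lost without vehicle replicate 2 (-1.03, adjusted p = 0.0669) or without bortezomib replicate 1 (-1.09, adjusted p = 0.0557). Its relative Dnajb12 had RPF log2 fold changes of -0.23 and -0.17 in S51 and S51A.

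Among the other ER members, Dnajb11 (ERdj3, a lumenal cochaperone of BiP) had RPF log2 fold changes of 0.36 ± 0.12 and 0.39 ± 0.11 with adjusted p of 0.0275 and 0.0109 in S51 and S51A, under the fold limit. Dnajc10 (ERdj5, a disulfide reductase of the ER) had 0.07 ± 0.15 and 0.05 ± 0.12, and its S51 value without replicate 2 of S51 vehicle was -0.11. Dnajc16 fell in RPF of S51 (-0.75 ± 0.23, adjusted p = 0.0192), with -0.36 ± 0.19 in S51A (adjusted p = 0.181), and its total RNA changes of -0.49 and -0.58 were under the fold limit. The S51 call of Dnajc16 was lost without bortezomib replicate 1 (-0.66, adjusted p = 0.055) or 4 (-0.58, adjusted p = 0.0795). Dnajc18 rose in RPF of S51A (0.83 ± 0.26, adjusted p = 0.0245), with 0.11 ± 0.31 in S51 (adjusted p = 0.811), or 0.06 without replicate 2 of S51 vehicle, at RPF counts of 7 to 44. Its call was lost without vehicle replicate 1 (0.67, adjusted p = 0.0647) or 4 (0.84, adjusted p = 0.0537), or without bortezomib replicate 1 (0.74, adjusted p = 0.0844) or 2 (0.76, adjusted p = 0.0707).

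The mitochondrial list held 8 genes, 7 members and Hscb, the cochaperone of iron-sulfur cluster assembly. In RPF none of the 7 tested rose in either line. Dnajc30 and Hscb fell in S51 and none fell in S51A, with list medians of -0.38 and -0.11. Of all genes, 7.38% rose and 11.2% fell in RPF of S51, and 4.19% rose and 6.67% fell in S51A. In total RNA Dnajc30 fell in each line and Dnajc28 rose in S51A (0.83 ± 0.29, adjusted p = 0.0177), at levels of at most 1.14 CPM, a call lost without vehicle replicate 1 (0.64, adjusted p = 0.0736). There, 5.7% of all genes rose and 9.59% fell in S51, and 4.54% rose and 8.57% fell in S51A. RPF of Hscb changed by -1.46 ± 0.30 (log2) in S51, and its S51A value was -0.50 ± 0.24. Dnaja3, the class A member of the mitochondrial matrix, had values below 0 where the rest of its class was above, with RPF log2 fold changes of -0.38 ± 0.11 in S51 and -0.44 ± 0.11 in S51A (adjusted p = 0.0157 and 0.005), under the fold limit.

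Dnajc30 (Entrez 66114, chr5:135064206-135065365), a protein of the mitochondrial inner membrane, is the class C member that fell in total RNA of both lines. Its total RNA in S51 was 5.54, 6.31, 6.47 and 6.07 CPM under vehicle and 3.28, 3.28, 3.84 and 3.38 CPM under bortezomib. In S51A the libraries gave 4.43, 5.40, 6.62 and 6.05 CPM under vehicle and 3.08, 3.58, 3.71 and 3.46 CPM under bortezomib. Vehicle and bortezomib did not overlap in either line, and the log2 fold changes were -0.82 ± 0.12 in S51 and -0.70 ± 0.12 in S51A. In RPF its level in S51 was 14.5, 28.0 and 14.7 CPM under vehicle and 9.46, 10.5, 8.32 and 9.52 CPM under bortezomib. S51A cells had 12.6, 14.6, 9.13 and 10.3 CPM under vehicle and 6.77, 11.7, 6.76 and 11.6 CPM under bortezomib, with overlap. The RPF log2 fold change in S51 was -0.98 ± 0.28 (adjusted p = 0.0112), and the call was lost without replicate 2 of S51 vehicle, the highest of the group at 28.0 CPM, where the value was -0.66 with an adjusted p of 0.0571. In S51A it was -0.36 ± 0.26 (adjusted p = 0.348).

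Of the 6 members tied to RNA, ribosomes, chromatin or the translation machinery, 1 rose in RPF of each line. Of all genes, 7.38% rose in RPF of S51 and 4.19% in S51A. The list medians were 0.03 in S51 (-0.10 without RPF replicate 2 of S51 vehicle) and 0.03 in S51A. In total RNA none rose in S51 (5.7% of all genes) and 1 rose in S51A (4.54%). That member was Dnajc9 (Entrez 108671, chr14:20384638-20388910), a cochaperone of histones H3 and H4. RPF in S51 cells stood at 22.3, 26.6 and 22.7 CPM under vehicle and 38.6, 42.1, 39.7 and 35.3 CPM under bortezomib. For S51A the values were 22.0, 22.4, 22.8 and 23.3 CPM under vehicle and 42.2, 32.6, 42.1 and 36.8 CPM under bortezomib. Vehicle and bortezomib did not overlap in either line, and the RPF log2 fold changes were 0.71 ± 0.14 in S51 (adjusted p = 0.000591) and 0.76 ± 0.12 in S51A (adjusted p = 9.28e-05). Total RNA of Dnajc9 in S51 was 32.2, 37.7, 34.9 and 35.7 CPM under vehicle and 52.4, 55.8, 48.9 and 52.0 CPM under bortezomib. S51A libraries gave 35.5, 33.3, 35.4 and 37.0 CPM under vehicle and 61.6, 59.6, 58.6 and 64.2 CPM under bortezomib. The S51 change in total RNA, 0.57 ± 0.05 (log2), was just under the fold limit, and that of 0.79 ± 0.05 in S51A above it. Dnajc2, the cochaperone at the ribosome's exit tunnel, had RPF changes of 0.13 and -0.01 in S51 and S51A, and -0.12 in S51 without that replicate.

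The list for vesicles and endosomes held 7 genes, of which 3 were tested in RPF and 4 in total RNA, and none was called in either line. Of all genes, 18.6% and 10.9% were called in RPF of S51 and S51A, and 15.3% and 13.1% in total RNA. Dnajc5 (Entrez 13002, chr2:181518858-181552886) had the highest RPF level per kilobase of class C. Its RPF level in S51 was 97.1, 95.2 and 89.4 CPM under vehicle and 95.3, 87.0, 87.8 and 89.6 CPM under bortezomib. In S51A, it stood at 100.0, 114, 90.9 and 95.9 CPM under vehicle and 113, 121, 115 and 113 CPM under bortezomib. Its RPF log2 fold changes were -0.06 ± 0.10 (adjusted p = 0.684) and 0.20 ± 0.09 (adjusted p = 0.111). Total RNA of Dnajc5 was 229, 213, 233 and 217 CPM under vehicle and 244, 255, 256 and 237 CPM under bortezomib in S51. In S51A it was 234, 239, 242 and 237 CPM under vehicle and 255, 263, 264 and 256 CPM under bortezomib, and the log2 fold changes were 0.15 and 0.13.

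The next question was whether ribosome occupancy moved apart from the mRNA. Translational efficiency (TE), the change in RPF over the change in total RNA, was tested in one model over all 31 libraries, with the same call rule. No member was called in S51 (5.27% of all genes tested) or in S51A (0.983%), nor under the study's rule of a called RPF change that exceeds the total RNA change by more than 1.5-fold. At an unadjusted p below 0.05 there were 9 of 33 in S51 (23% of all genes) and 1 of 33 in S51A (6.52%). The closest was Dnajc3 in S51, with a TE log2 change of 0.58 ± 0.18 or 1.49-fold (adjusted p = 0.039), beside 0.00 ± 0.16 in S51A. Leaving out 1 library moved it: it was 0.44 (adjusted p = 0.13) without RPF replicate 2 of S51 vehicle and 0.73 (adjusted p = 0.0151) without replicate 1, and it was also called without RPF replicate 2 of S51 bortezomib (0.65), total RNA replicate 3 of S51 vehicle (0.60) or total RNA replicate 4 of S51 bortezomib (0.61). TE changes in S51 were 0.50 ± 0.19 for Dnaja1, 0.51 ± 0.17 for Dnajb4 and 0.07 ± 0.15 for Dnajb1, and in S51A 0.12 ± 0.18, 0.08 ± 0.14 and -0.03 ± 0.13. Without RPF replicate 2 of S51 vehicle the S51 values were 0.24 for Dnaja1, 0.30 for Dnajb4 and 0.11 for Dnajb1. Those of Dnaja1 and Dnajb4 were 0.64 and 0.74, both called, without replicate 1. Without replicate 3, Dnaja1 (0.66) and Dnajc15 (0.62) were called. Across the 33 members, RPF and total RNA log2 fold changes had a Pearson r of 0.943 in S51 and 0.97 in S51A, a description over genes that share lysates and libraries.

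**Figure D3:**
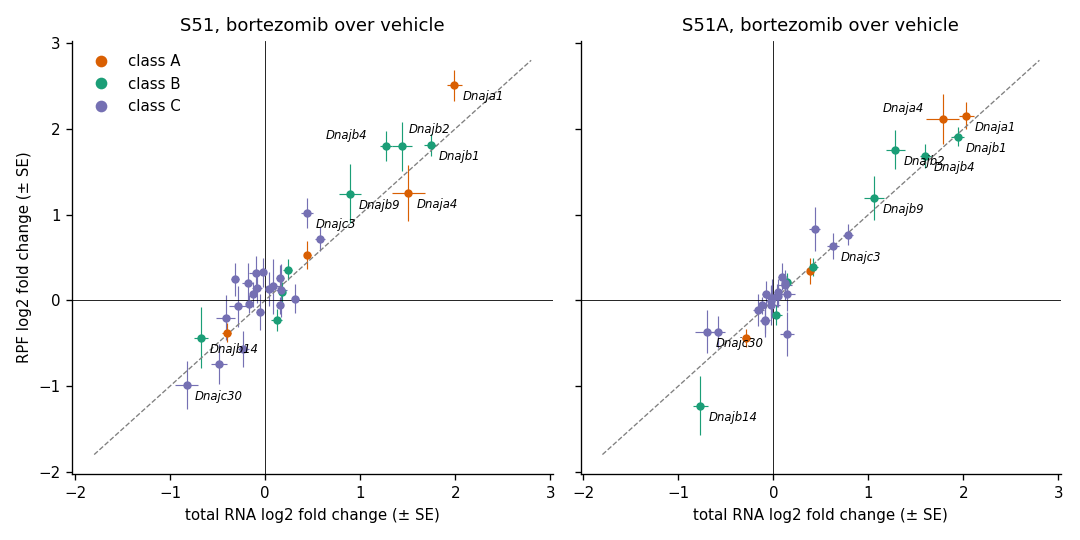
RPF log2 fold change (vertical axis) against total RNA log2 fold change (horizontal axis), each with its standard error, of the 33 members in S51 (left) and S51A (right), coloured by class, with the dashed line at equal change. In S51, Dnaja1 lay above the line with 2.51 in RPF and 1.99 in total RNA, and Dnajc30 at the low end had -0.98 and -0.82.

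The levels were also summed over each class. RPF levels were summed per library as CPM per kilobase of coding sequence. Class A went from 382 ± 121 (SD, n = 3) to 1028 ± 61.5 (n = 4) in S51 and from 437 ± 47.0 to 1076 ± 52.7 (n = 4 each) in S51A. Class B went from 424 ± 24.2 to 789 ± 48.0 in S51 and from 495 ± 15.2 to 1012 ± 107 in S51A. Class C went from 792 ± 81.9 to 868 ± 36.4 and from 785 ± 33.4 to 870.0 ± 25.1. As a share of the RPF sum of the family, Dnaja1 alone went from 7.25% ± 2.06 under vehicle to 25.5% ± 1.21 under bortezomib in S51 and from 9.84% ± 0.814 to 25.5% ± 1.12 in S51A, and the other 3 genes of class A together from 16.3% ± 2.73 to 12.7% ± 0.138 and from 15.6% ± 1.07 to 10.8% ± 1.28. As a share of the same sum, class A was 23.5% ± 4.69 under vehicle and 38.3% ± 1.14 under bortezomib in S51, and 25.4% ± 1.86 and 36.4% ± 0.323 in S51A. Class C was 49.8% ± 2.08 and 32.4% ± 1.82 in S51, and 45.7% ± 1.26 and 29.5% ± 1.98 in S51A. In total RNA, per kilobase of transcript, class A was 21.3% ± 0.466 and 31.2% ± 1.26 in S51 and 20.9% ± 0.685 and 30.4% ± 1.30 in S51A (n = 4 each). No test was run on these sums. The vehicle and bortezomib libraries of classes A and B did not overlap in either line. Those of class C overlapped in S51 and did not in S51A, in RPF and in total RNA. The lowest class A sum, 245, was that of replicate 2 of S51 vehicle, beside 428 and 473 in the others of its group.

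**Figure D4:**
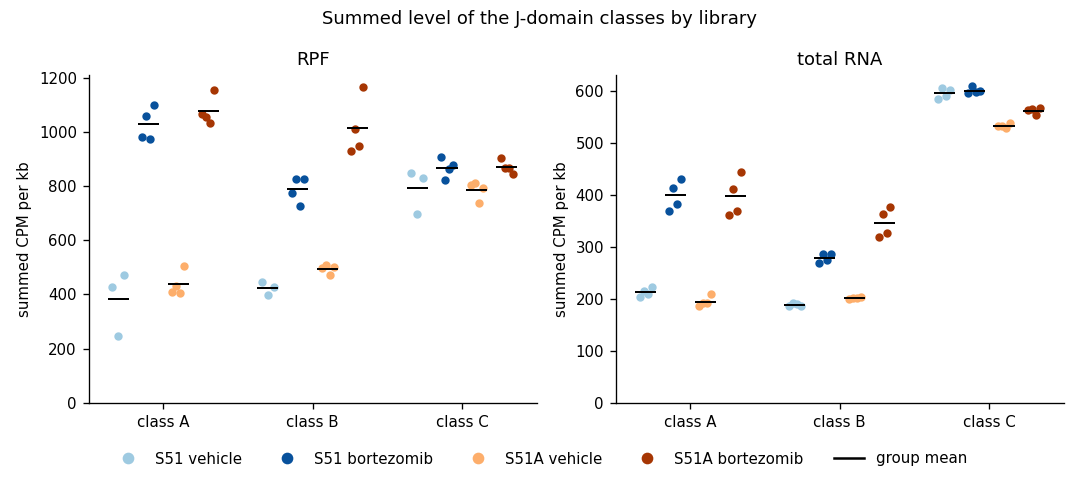
Summed level of classes A, B and C in every library, as CPM per kilobase of coding sequence for RPF (left) and per kilobase of transcript for total RNA (right), with a point per library, a line at the group mean and axes from 0. In RPF, class A libraries lay at 245 to 505 under vehicle and 975 to 1152 under bortezomib over both lines.

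The lines were then compared with each other under the same treatment. These comparisons share their libraries with the bortezomib comparisons above. Under vehicle, 1 of 33 members was called in RPF (15.8% of all genes), Dnajb4, lower in S51 (-0.78 ± 0.17, adjusted p = 0.00168). Without replicate 2 of S51 vehicle this value was -0.53 (adjusted p = 0.000649), under the fold limit, and Dnajc19 was called in its place, higher in S51. In total RNA under vehicle, 1 of 37 was called (17.5% of all genes), Dnajc19, higher in S51. Under bortezomib, 2 of 33 were called in RPF (17.7% of all genes), Dnajc19 higher in S51 and Dnajb4 lower, and 6 of 37 in total RNA (20% of all genes). Of these 6, Dnajc19 and Dnajc27 were higher in S51 and Dnajb1, Dnajb4, Dnajb5 and Dnajc28 lower. Some of the 6 depended on the processing: Dnajc28 was not called with DESeq2 or with at least 10 counts in every library, Dnajc19 and Dnajc27 were not called with library sizes alone, and Dnajc28 was also lost without any of 5 single libraries (log2 -0.60 to -0.73). Each share of members called was below that of all genes. Leaving out 1 library changed several of these counts: under vehicle, 4 members were called in RPF without replicate 1 of S51 vehicle and 5 without replicate 3, and under bortezomib 4 were called in RPF without S51 bortezomib replicate 1. In total RNA under vehicle 3 were called without S51 vehicle replicate 3, and under bortezomib 3 without S51 bortezomib replicate 1 or without S51A bortezomib replicate 2. The shares of all genes called in these settings are not given, so the changed counts cannot be set against them.

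Dnajc19 (Entrez 67713, chr3:34057280-34081354), a protein of the mitochondrial inner membrane related to the protein import motor, was higher in S51 than in S51A. Its total RNA in S51 was 41.3, 38.6, 43.8 and 37.9 CPM under vehicle and 36.3, 37.3, 35.5 and 33.3 CPM under bortezomib. The S51A libraries had 24.2, 23.3, 22.9 and 22.8 CPM under vehicle and 24.2, 21.0, 22.9 and 24.1 CPM under bortezomib. Every S51 library was above every S51A library, with a log2 difference (S51 over S51A) of 0.79 ± 0.06 under vehicle (adjusted p = 2.24e-11) and 0.63 ± 0.06 under bortezomib (adjusted p = 1.92e-09), the latter 0.58 and under the fold limit without S51A bortezomib replicate 2. With bortezomib its total RNA log2 fold changes were -0.18 in S51 and -0.02 in S51A, not called. In RPF its level in S51 was 26.9, 12.1 and 25.1 CPM under vehicle and 24.7, 27.7, 25.7 and 24.1 CPM under bortezomib. In S51A the libraries gave 15.4, 13.5, 12.9 and 16.8 CPM under vehicle and 16.1, 9.26, 19.8 and 14.7 CPM under bortezomib. The RPF difference was 0.58 ± 0.22 under vehicle (adjusted p = 0.0528), 0.81 without replicate 2 of S51 vehicle, and 0.76 ± 0.23 under bortezomib (adjusted p = 0.014). Dnajb4 had the opposite order, with total RNA differences of -0.47 ± 0.07 under vehicle, short of the fold limit, and -0.80 ± 0.06 under bortezomib, and an RPF difference of -0.65 ± 0.14 under bortezomib. For Dnajb1 the total RNA difference under bortezomib, -0.59 ± 0.06, was barely past the fold limit, and it was under it with DESeq2 (-0.58), with RLE factors (-0.58) and without S51 bortezomib replicate 1 (-0.57) or 3 (-0.55) or S51A bortezomib replicate 2 (-0.56) or 4 (-0.51). Genotype and clone cannot be told apart in any of these differences. In TE, no member was called between the lines under vehicle (0.0846% of all genes) or bortezomib (3.07%), with 4 of 33 at an unadjusted p below 0.05 in each (14.7% and 18.3% of all genes).

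The last question was whether the ISR changed the response itself. The difference of the responses, S51 minus S51A, was called for no member in RPF (1.86% of all genes), total RNA (2.09%) or TE (1.29%), and DESeq2 also called none in RPF or total RNA. At an unadjusted p below 0.05 there were 0 of 33 members in RPF (16.1% of all genes), 10 of 37 in total RNA (34%) and 2 of 33 in TE (11.9%). In RPF the differences for the members that rose in both lines were 0.35 ± 0.23 for Dnaja1, -0.10 ± 0.17 for Dnajb1, 0.04 ± 0.36 for Dnajb2, 0.12 ± 0.22 for Dnajb4 and 0.38 ± 0.24 for Dnajc3. Without RPF replicate 2 of S51 vehicle they were 0.08, -0.05, -0.25, -0.12 and 0.25 in the same order, and those of Dnajb2 and Dnajb4 changed sign. Of the remaining members that rose in both lines, Dnajb9 had -0.15 and Dnajc9 0.02 without that replicate. For Dnaja4 the RPF difference was -0.87 ± 0.45 (edgeR adjusted p = 0.356), not called, at low RPF counts. Whether depth limited this call was not tested. In the more deeply counted total RNA, 7 members had an adjusted p below 0.05 for a difference under 1.5-fold (21.6% of all genes had an adjusted p below 0.05 with no fold limit), among them Dnajc13 and Dnajb4. Dnajc13, a J-domain protein of endosomes, had 0.28 ± 0.05 (adjusted p = 0.000225), and Dnajb4 had -0.33 ± 0.09 (adjusted p = 0.00988), a smaller rise in S51. Across members the RPF responses of the lines had a Pearson r of 0.909 over 33 genes and the total RNA responses 0.944 over 37, as a description with no test.

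J-domain proteins work with HSP70 chaperones, so the partners were counted from fixed lists. Of 13 HSP70 and HSP110 genes, all tested, 9 rose in RPF of S51 (10 without replicate 2 of S51 vehicle) and 8 in S51A, and none fell, with list medians of 1.22 and 0.89. Of all genes, 7.38% rose and 11.2% fell in RPF of S51, and 4.19% rose and 6.67% fell in S51A. In total RNA 7 rose and 1 fell in each line. There, 5.7% of all genes rose and 9.59% fell in S51, and 4.54% rose and 8.57% fell in S51A. The largest RPF log2 fold changes were those of Hspa1a (7.43 ± 0.33 in S51 and 6.78 ± 0.23 in S51A), Hspa1b (4.96 ± 0.21 and 4.49 ± 0.18) and Hspa1l (3.88 ± 0.67 and 4.58 ± 0.66). Hspa1a, Hspa1b and Hspa1l are close copies whose shared reads unique mapping leaves out, so their values are uncertain. The gene that fell in total RNA was Hspa1l. Hspa8, the constitutive cytosolic HSP70, had 1.77 ± 0.12 in S51 and 1.89 ± 0.11 in S51A, and Hspa5 (BiP, the HSP70 of the ER) 1.70 ± 0.18 and 1.19 ± 0.16. Hsph1, an HSP110 that exchanges the nucleotide of HSP70, had 2.76 ± 0.19 and 2.85 ± 0.17. Hspa8, Hspa5 and Hsph1 were named after their values were seen. Of 13 nucleotide exchange factors and regulators, 2 rose in RPF of S51 (Bag3 and Stip1), and 3 rose (Bag3, St13 and Stip1) and 1 fell (Bag5) in S51A, with list medians of 0.06 (0.17 without replicate 2 of S51 vehicle) and 0.13. The shares of all genes are again 7.38% that rose in S51, and 4.19% that rose and 6.67% that fell in S51A. Bag3, which links HSP70 to autophagy, had 1.73 ± 0.18 and 2.01 ± 0.16.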

How the data were processed

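RPF were sequenced from 15 libraries and total RNA, from the same lysates, from 16. According to the study's methods and the file headers, the authors trimmed reads with FastX, aligned them to mm10 with Bowtie2, left out ribosomal RNA and repeats, kept unique reads of mapping quality 50, and counted RPF of 20 to 23 or 26 to 32 nt with plastid in coding sequences without the first 15 and last 5 codons. The labels' processing notes name Bowtie2, featureCounts and DESeq2, with versions not given in the sources used here. The deposited values are raw counts per Entrez gene, not normalized, and unique mapping lowers the counts of near-identical genes.

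Columns were mapped by the submitters' remark on exchanged titles of 2 groups, so that columns 5 to 8 are S51 bortezomib and 9 to 12 S51A vehicle. No per-sample column was left unused. Symbols were found for 20687 of 20704 RPF identifiers and 24569 of 24593 total RNA identifiers. Depth was 1038826 to 4902237 counts per library in RPF and 18758668 to 22994713 in total RNA, so low members are less precise in RPF. Counts were tested in R 4.3.3 with edgeR 4.0.16 (quasi-likelihood, TMM factors, filterByExpr with at least 10 counts, 4 groups in 1 fit per kind of library), with Benjamini-Hochberg adjustment over all genes tested, and TE as an interaction over the 31 libraries. A call needed an adjusted p below 0.05 and a fold above 1.5. The scripts were tested on simulated data. Whether same-numbered libraries deviate together was checked from the data, since the labels do not say that numbers mark a shared batch. Replicates of a group differed by more than counting noise (chi-square per gene of at least 1.64). Alternatives were DESeq2 1.42.0, other scalings, filters and fold limits, the replicate block and leaving out each library. Members given in full were those called in both RPF and total RNA in at least 1 comparison, those called in the difference of the responses or in RPF between the lines under vehicle, and the member of each class with the highest RPF level per kilobase over all 4 groups (Dnaja1, Dnajb1 and Dnajc5; under S51 vehicle alone Dnaja2 and Dnajb6 were above the first 2). The members and lists were chosen with earlier results of these data known. Promoter windows and transcript lengths came from RefSeq on GRCm38.p6, and coordinates of genes likewise.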

Additional observations from a re-analysis of the deposited data

Results flagged for a closer look

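In total RNA of S51 under bortezomib, Dnajb4 was at 112.2 CPM in replicate 1 and at 117.7 to 118.2 CPM in the other 3 libraries. The gap to the nearest library was 0.905 of the group's range, above Dixon's 95% critical value for 4 samples. Chance gives such a gap in about 1 in 20 groups, and 84 groups of 4 were looked at.

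The total RNA response to bortezomib differed between the lines for 7 members by edgeR's interaction test, each by less than 1.5-fold, or 7 of 37 tested beside 21.6% of all genes under the same rule. The log2 difference, S51 minus S51A, was -0.33 for Dnajb4 (1.27 in S51 and 1.6 in S51A), -0.22 for Dnajc9 (0.57 and 0.79), -0.17 for Dnajc10 (-0.13 and 0.05), 0.28 for Dnajc13 (0.32 and 0.04), -0.24 for Dnajc14 (-0.32 and -0.08), -0.26 for Dnajc18 (0.17 and 0.43) and -0.43 for Dnajc24, which takes part in diphthamide synthesis (-0.29 and 0.14). In RPF no member passed this test, at a depth of 1038826 to 4902237 counts.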

How the results depend on the processing

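Leaving out 1 library at a time, the members called with bortezomib numbered 9 to 12 in RPF and 8 to 10 in total RNA of S51 (10 and 8 with all libraries), and 8 to 10 and 11 to 13 in S51A (10 and 12). Between the lines they numbered 1 to 5 in RPF and 1 to 3 in total RNA under vehicle, and 2 to 4 and 3 to 6 under bortezomib. For TE they numbered 0 to 3 in S51, 0 to 1 between the lines under vehicle, and 0 in the other comparisons, as did the differences of the responses. Here and below, some counts have no share of all genes beside them. Such counts cannot tell a change in the members from a change over all genes. For the 12 members given in full, the 43 RPF and total RNA values called with all libraries were recomputed. TE and the difference of the responses were left out of this. Of 1068 recomputed values, 1033 kept their call, 35 lost it and 0 changed sign. The other fold limits reuse the same fit, so no sign could change under them, and with no fold limit no call could be lost. Many recomputed values left out a library of a group outside the comparison, which acts only through the shared filter, scaling and spread. The fit without RPF replicate 2 of S51 vehicle was counted again with no fold limit. The 1033 therefore overstates how firmly the calls were tested.

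With no fold limit, the total RNA counts were 26 in S51 (59.8% of all genes), 22 in S51A (56.4%), 21 between the lines under vehicle (63.8%), 27 under bortezomib (65.7%) and 7 for the difference of the responses (21.6%), and the RPF counts between the lines 6 (28.6%) and 7 (31.5%). With a fold above 2, 5 and 6 members remained in total RNA of S51 and S51A, and 0 between the lines in either kind. For RPF between the lines under vehicle, RLE factors, library sizes alone and no filter each gave 3. Library sizes alone also gave 2 in total RNA under vehicle, and 4 in TE of S51 (Dnaja1, Dnajb4, Dnajc3 and Dnajc14), and moved the median of all genes in total RNA by -0.154 in S51 and -0.116 in S51A against TMM factors. At least 10 counts in every library gave 5 in RPF of S51A, since Dnaja4, Dnajb2, Dnajb9, Dnajb14 and Dnajc18 were not tested there, and 2 in total RNA under vehicle. With no fold limit and without RPF replicate 2 of S51 vehicle, an alternative chosen after seeing the data, the RPF counts between the lines were 6 (28.7% of all genes) and 9 (39.8%), and TE gave 1 in S51 (Dnajc13, 8.99%), 3 between the lines under bortezomib (10.1%) and 1 for the difference (Dnajc13, 2.7%). Where no cause is given, the cause was not tested.

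Same-numbered libraries had correlations of -0.166 to 0.269 in RPF, with 3 of 21 pairs above 0.1. In total RNA same-numbered libraries had 0.0187 to 0.321, with 19 of 24 above 0.1. There, every pair was above 0.1 for S51A with bortezomib and for the lines under bortezomib, where the replicate block kept the same 12 and 6 members. Libraries of different numbers were not compared, so these values cannot decide whether the numbers mark a shared batch. The block gave 4 members in RPF between the lines under vehicle in place of 1, and the counts of the other comparisons stayed the same. Low RPF counts limit Dnaja4, Dnajb9, Dnajb14 and Dnajc18, among other members.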
